A study of Homo sapiens with 8 samples.

Results

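The genes described here are 10 output genes of the mitogen-activated protein kinase (MAPK) pathway: *DUSP4*, *DUSP5*, *DUSP6*, *SPRY2*, *SPRY4*, *SPRED1*, *ETV4*, *ETV5*, *FOSL1* and *EGR1*. They were chosen by name, as genes that MAPK signalling is known to switch on, and with earlier results of these data known. Their probes were found through the transcript accession of each probe, and 10 of 10 were matched among 22439 genes named on the array. Every member had a value on each of the 8 arrays.

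In the MAPK pathway, growth factor receptors act through RAS and the kinases RAF, MEK and ERK. Active ERK switches on transcription factors such as the ETS and AP-1 families, and also its own inhibitors, so that levels of these transcripts are often read as a measure of pathway output. In lung cancer the pathway is a frequent site of activating mutations.

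Total RNA of 4 human lung cancer cell lines was measured on 8 Agilent arrays with 2 colours, with treated cells in the red channel (Cy5) and control cells of the same line in the green channel (Cy3). The *miR-150-3p* group held 2 arrays, each of a squamous cell carcinoma line (EBC-1 and SK-MES-1) transfected with this microRNA. The siDONSON group held 3 arrays of the small cell line SBC-3, each with a different siRNA against *DONSON*, a DNA replication factor (siDONSON-1, siDONSON-2 and siDONSON-3). The LOXL2 editing group held 3 arrays of the adenocarcinoma line A549 in which *LOXL2*, which codes for an enzyme that oxidises lysine residues, was targeted with CRISPR/Cas9 (A549-GE1, A549-GE2 and A549-GE3).

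The labels called the controls of the transfected lines both mock and not transfected, so whether they received transfection reagent is not known. A549 controls had no genome editing, and the labels did not say whether GE1 to GE3 were clones, guides or cultures. Each SBC-3 array had its own siRNA and the squamous arrays were of different lines, so their treated cells were separate transfections. Nothing said that the A549 arrays, or the controls of a line, came from separate cultures. P-values measure only the spread between arrays, which was pooled over all groups in 1 fit. For A549 they thus also take in differences between siRNAs and between squamous lines, and the spread within A549 may be technical. All arrays lay on 1 slide and the dyes were never swapped, so treatment and dye cannot be told apart. Of the probes, 41.1% to 46.4% were well above background in green and 48.5% to 56.2% in red, and the small number of arrays limits the precision.

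The targeted genes were read first, as a check of the labels. For *DONSON*, log2 ratios of treated over control were -2.15, -1.79 and -2.11 on the arrays of siDONSON-1, siDONSON-2 and siDONSON-3. This gene fell in 3 of 3 arrays (mean log2 ratio -2.02, SE 0.16, adjusted p = 0.00312 by limma, with Benjamini-Hochberg adjustment over 14453 genes), and with normexp its mean was -0.89 (adjusted p = 0.000455). For *LOXL2*, log2 ratios were -2.49, -2.67 and -2.59 on the A549-GE1, A549-GE2 and A549-GE3 arrays. This gene fell in 3 of 3 arrays (mean -2.58, SE 0.23, limma adjusted p = 0.00180), although where its probe lies relative to the edited site was not stated.

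The labelled cancer types were checked against marker genes in the control channel. Of 6 squamous markers, EBC-1 had 1 well above background (*SOX2*), and SK-MES-1 had 3 (*TP63*, *SOX2* and *PKP1*), whereas *KRT5*, *KRT6A* and *DSG3* were not well above background in any line. SBC-3 also had *TP63* and *SOX2* above background on 3 of 3 arrays, and A549 had *SOX2* on 3 of 3 and *TP63* on 1 of 3. The summed squamous signal was 252 in EBC-1, 496 in SK-MES-1, 20164 in SBC-3 and 643 in A549, with *SOX2* (log2 level 14.29) making up nearly all of it in SBC-3, so this sum was not used to check the labels. Most squamous markers were thus not well above background in EBC-1, and the squamous label of both lines is used here only as a name.

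Of 6 small cell markers, SBC-3 had 3 above background (*NEUROD1*, *CHGA* and *SYP*), A549 had 1 (*CHGA*), and neither squamous line had any. Their summed signal was 648 in SBC-3, 332 in A549, 74.9 in SK-MES-1 and 69.3 in EBC-1, and *POU2F3* and *INSM1* were not above background in any line. Of 5 adenocarcinoma markers, *NAPSA* was above background in A549, EBC-1 and SK-MES-1, and *SFTPC* in SK-MES-1, on 2 of 3 A549 arrays and on 1 of 3 SBC-3 arrays. *NKX2-1*, a defining factor of this cancer type, was not above background in A549 and was above it on 1 of 3 SBC-3 arrays. The summed adenocarcinoma signal was 128 in A549, 148 in EBC-1, 86.2 in SK-MES-1 and 112 in SBC-3. Only 0 to 2 of 5 of these markers were above background on every array of a line, so the sums include signal not well above background and were not used to check the label. What these markers have to do with the member genes was not tested.

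Control channel levels of the members differed between the 4 lines by amounts that ran from small (*ETV5*) to large (*EGR1*). How often all genes differed by over 1 on the log2 scale is given below. These are log2 signals after scaling the arrays to each other (Aquantile), given for EBC-1 and SK-MES-1 from 1 array each and for SBC-3 and A549 as mean ± SD of 3 arrays. They are compared within a gene and without a test, since the control RNAs of a line may be 1 extract. Between any pair of arrays of a line, log2 green signals differed with an SD of 0.17 to 0.20 over probes.

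The DUSP genes code for phosphatases that switch off MAP kinases. *DUSP4*, a nuclear phosphatase, had levels of 9.71 in EBC-1, 10.35 in SK-MES-1, 9.50 ± 0.082 in SBC-3 and 11.96 ± 0.045 in A549. A549 was highest, 5.50-fold above SBC-3, while EBC-1 and SBC-3 differed by 0.21, near the spread between arrays. *DUSP5*, a nuclear phosphatase specific for ERK, had levels of 9.86, 8.59, 6.74 ± 0.11 and 9.14 ± 0.047 in the same order, lowest in SBC-3. *DUSP6*, its cytoplasmic counterpart, had levels of 12.55, 9.92, 10.35 ± 0.092 and 9.54 ± 0.019. EBC-1 was highest, 4.58-fold above SBC-3, the next line.

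Sprouty and SPRED proteins are feedback inhibitors that act near RAS and RAF. *SPRY2* had levels of 9.88 in EBC-1, 10.93 in SK-MES-1, 8.48 ± 0.099 in SBC-3 and 9.07 ± 0.034 in A549, highest in SK-MES-1. *SPRY4* was dim, at 7.06, 6.04, 6.07 ± 0.16 and 5.86 ± 0.21, as the mean of 2 probes, of which 1 was not well above background in green on any SBC-3 array and on 2 of 3 A549 arrays. Its brighter probe alone had levels of 8.07 in EBC-1, 6.89 in SK-MES-1, 7.61 in SBC-3 (7.56 to 7.69) and 7.21 in A549 (7.19 to 7.24). With that probe SBC-3 lay 0.40 above A549, and whether the control RNAs of a line are separate extracts is not known. *SPRED1* had levels of 6.75, 7.95, 8.12 ± 0.089 and 7.43 ± 0.074, lowest in EBC-1, and SK-MES-1 lay 0.16 below SBC-3, within the spread between arrays.

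Among the transcription factors, *ETV4* and *ETV5* belong to the PEA3 group of the ETS family, *FOSL1* codes for the AP-1 subunit FRA-1, and *EGR1* is an immediate early zinc finger factor. *ETV4* had levels of 8.70 in EBC-1, 6.90 in SK-MES-1, 8.37 ± 0.026 in SBC-3 and 8.08 ± 0.093 in A549, lowest in SK-MES-1. *ETV5* levels were 8.37, 8.27, 8.30 ± 0.085 and 7.81 ± 0.12, and the lines other than A549 lay within 0.10 of each other. *FOSL1* levels were 13.34, 12.18, 8.75 ± 0.051 and 9.59 ± 0.0091. Both squamous lines stood above the other lines for this gene, EBC-1 by 24.0-fold over SBC-3 and by 13.4-fold over A549. *EGR1* levels were 10.29, 10.45, 13.52 ± 0.018 and 6.76 ± 0.11. EBC-1 and SK-MES-1 differed by 0.16 for *EGR1*, within the spread between arrays, and SBC-3 was 108-fold above A549.

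Counts of members whose control levels differed by over 1 on the log2 scale were read against the share over all genes. SBC-3 against A549 had 3 of 10 members past that size (*DUSP4* and *DUSP5* lower, *EGR1* higher), against 33.2% of 13655 genes. EBC-1 against A549 had 5 (*DUSP4* lower and *DUSP6*, *SPRY4*, *FOSL1* and *EGR1* higher), against 34.4% of all genes, and 4 with the brightest probe of each gene. SK-MES-1 against A549 also had 5 (*DUSP4* and *ETV4* lower and *SPRY2*, *FOSL1* and *EGR1* higher), against 29.2%. EBC-1 against SK-MES-1 had 7 (*SPRY2* and *SPRED1* lower and *DUSP5*, *DUSP6*, *SPRY4*, *ETV4* and *FOSL1* higher), against 30.7%. With normexp and loess on median signals, that last count was 2, against 11.2% of all genes, while the first 3 were 3, 4 and 4, against 14.7%, 14.2% and 10.8%. These steps were changed together, here and wherever normexp is named, so no move is assigned to background correction alone. Under normexp the *EGR1* difference between SBC-3 and A549 was 4.87 in place of 6.76 on the log2 scale. *FOSL1* levels under normexp, also with Aquantile scaling, were 10.83 in EBC-1, 7.05 in SBC-3 and 7.56 in A549. They lay closer together than the *FOSL1* levels given above.

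**Figure D1:**
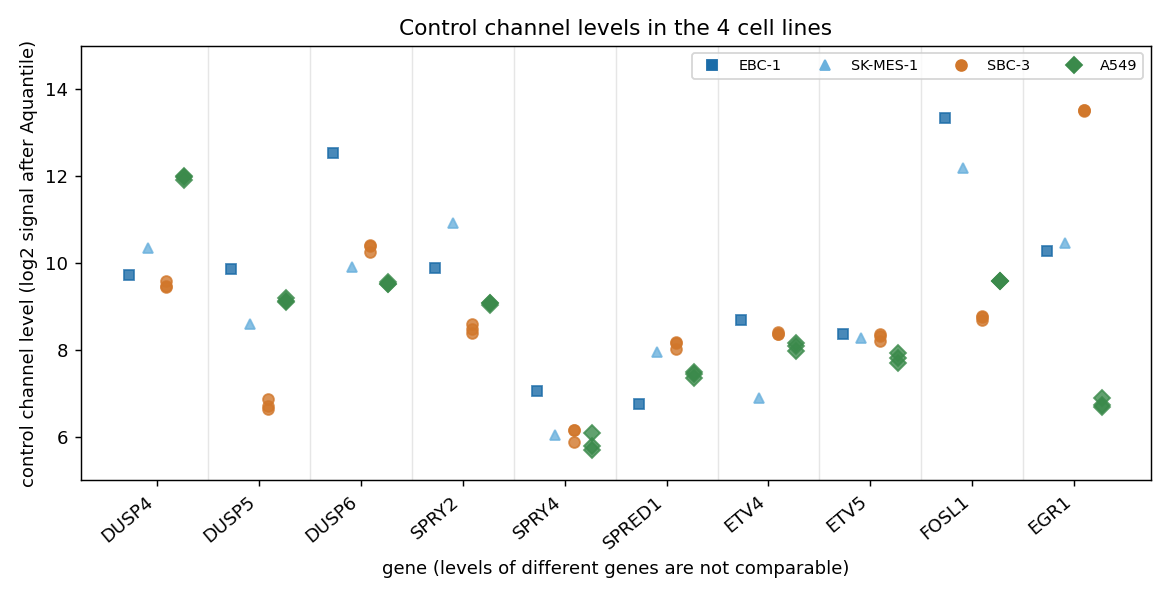
Control channel level of each member (vertical axis, log2 signal after Aquantile scaling) in the 4 cell lines, with 1 point per array. *EGR1* ran from 6.76 in A549 to 13.52 in SBC-3, and *FOSL1* was highest in EBC-1 at 13.34. Levels can be compared between lines but not between genes.

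Promoter sequences are shown for *EGR1* and *SPRY2*, the members that passed the test in both the siDONSON and the LOXL2 editing groups and had a match to a searched motif. RefSeq promoters (GRCh38.p14) were found for 5 of 10 members, with 7 start sites. *DUSP4*, *DUSP5*, *ETV4*, *ETV5* and *FOSL1* had no entry. The 250 bases before each start were searched on both strands for the following motifs. They were CCGGAA, named the ETS core here, the AP-1 element TGANTCA, the cyclic AMP response element TGACGTCA and the CArG box. Serum response factor is known to bind the CArG box. Shorter forms of the ETS core were not searched. Over 35116 promoters of the same table, 14.5% held the ETS core, 6.57% the AP-1 element, 1.65% the cyclic AMP response element and 1.16% the CArG box. The *EGR1* promoter (chr5:138465229-138465478, + strand) held 2 CArG boxes, in capitals, at 105 to 96 and 83 to 74 bases upstream of the start. The promoter of the first *SPRY2* start (chr13:80341127-80341376, - strand) held 1 ETS core, in capitals, at 142 to 137 bases upstream.
EGR1: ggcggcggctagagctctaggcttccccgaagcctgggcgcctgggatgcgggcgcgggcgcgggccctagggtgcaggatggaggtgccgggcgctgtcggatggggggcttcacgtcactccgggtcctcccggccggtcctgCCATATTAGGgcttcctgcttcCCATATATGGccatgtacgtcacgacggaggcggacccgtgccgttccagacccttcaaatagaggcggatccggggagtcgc
SPRY2: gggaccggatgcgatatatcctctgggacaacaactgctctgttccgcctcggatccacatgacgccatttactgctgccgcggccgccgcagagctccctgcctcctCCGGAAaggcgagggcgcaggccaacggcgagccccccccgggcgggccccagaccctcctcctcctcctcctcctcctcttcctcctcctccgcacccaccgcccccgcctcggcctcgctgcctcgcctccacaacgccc
None of the 4 motifs was in the windows of *SPRY4*, *DUSP6*, *SPRED1* or the other *SPRY2* starts. A match is a run of letters, and binding was not measured.

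In the LOXL2 editing group, 5 of 10 members fell (*SPRY2*, *ETV4*, *ETV5*, *FOSL1* and *EGR1*) and 1 rose (*DUSP5*) by limma at an adjusted p of 0.05. Of 15531 genes tested, 6.27% were called lower and 6.92% higher. The median of the members was -0.68, with 8 of 10 below 0, beside a median of 0.02 and 46.6% below 0 over all genes tested.

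Of the 3 phosphatases, 1 was called in A549. *DUSP5* had log2 ratios of 0.68, 0.76 and 0.72 in GE1, GE2 and GE3. It rose 1.64-fold in 3 of 3 arrays (mean 0.72, SE 0.085, adjusted p = 0.00400). *DUSP4* had ratios of 0.58, 0.29 and 0.38, above 0 on each array, and did not pass the test (mean 0.42, adjusted p = 0.309). *DUSP6* had ratios of -0.76, -0.97 and -0.60. Although below 0 on 3 of 3 arrays, it did not pass (mean -0.78, SE 0.31, adjusted p = 0.138), and its SD between arrays was 0.18 in this group, 0.83 in the siDONSON group and 0.74 in the *miR-150-3p* group. With the spread taken from the A549 arrays alone *DUSP6* was called lower (adjusted p = 0.0126, range over 14 alternatives 0.0126 to 0.403) and *DUSP4* higher (0.0259, range 0.0259 to 0.624).

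Among the feedback inhibitors, *SPRY2* had ratios of -1.49, -1.31 and -1.44. It fell to 37.5% of control in 3 of 3 arrays (mean -1.41, SE 0.12, adjusted p = 0.00135). *SPRED1* had ratios of -0.39, -0.46 and -0.50, close to each other, and did not pass (mean -0.45, adjusted p = 0.170). It was called lower with the spread of the A549 arrays alone (adjusted p = 0.0108) and with 4 cell lines as 4 groups (0.0423), in a range of 0.0108 to 0.411 over 14 alternatives. *SPRY4* was measured by 2 probes that disagreed in A549. The brighter probe had ratios of -0.99, -1.13 and -0.73, and the dim probe, not well above background in green on 2 of these 3 arrays, had ratios of -0.09, 0.21 and 0.87. Their mean did not pass (-0.31, adjusted p = 0.283), and with the brighter probe alone *SPRY4* was called lower (mean -0.95, adjusted p = 0.00485, range over 14 alternatives 0.00485 to 0.687).

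The transcription factors were lower on each A549 array. *ETV4* had ratios of -0.54, -1.23 and -0.74, widest in GE2, and fell (mean -0.84, SE 0.16, adjusted p = 0.0176, 3 of 3 arrays). *ETV5* had ratios of -0.66, -0.56 and -0.55 and fell (mean -0.59, SE 0.12, adjusted p = 0.0203, 3 of 3 arrays). *FOSL1* had ratios of -1.20, -1.41 and -1.49 and fell to 38.9% of control in 3 of 3 arrays (mean -1.36, SE 0.17, adjusted p = 0.00468). *EGR1*, which was dim in this line, had ratios of -1.14, -1.37 and -1.56 and fell to 39.1% of control in 3 of 3 arrays (mean -1.36, SE 0.12, adjusted p = 0.00168). Normexp kept all 6 calls but shrank the means of *EGR1* to -0.28, *SPRY2* to -0.68, *ETV4* to -0.37, *ETV5* to -0.23 and *FOSL1* to -0.90. The *ETV5* call was lost without any 1 of the 3 arrays (adjusted p = 0.101 to 0.121), and the *ETV4* call without GE2 (-0.64, adjusted p = 0.104) or GE3 (-0.88, adjusted p = 0.0799).

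Other genes of the pathway were read from lists. Of 12 feedback regulators measured in A549, 2 fell and 1 rose (list median -0.09). *DUSP16*, a phosphatase acting mainly on JNK and p38, rose (mean log2 ratio 1.30, range 1.16 to 1.54, adjusted p = 0.00203, 3 of 3 arrays), while *SPRY1* (-0.96, adjusted p = 0.00743) and *SPRED2* (-0.55, adjusted p = 0.0362) fell in 3 of 3 arrays. Normexp reduced the means of *DUSP16* to 0.37 and of *SPRED2* to -0.18, both still called. *SPRY1* was not called under normexp (-0.16, adjusted p = 0.129) or without GE2 or GE3 (adjusted p = 0.0596 and 0.0542). Among 8 other output genes, 3 fell and 0 rose by limma (list median -0.54). *EMP1*, an epithelial membrane protein gene, had ratios of -2.02, -2.18 and -2.46 (mean -2.22, adjusted p = 0.0228), *PHLDA1* a mean of -0.77 (adjusted p = 0.0137) and the ephrin receptor gene *EPHA2* a mean of -0.50 (adjusted p = 0.0426), each lower on 3 of 3 arrays. Under normexp the means of *PHLDA1* and *EPHA2* were -0.48 and -0.31, both called.

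Of 8 immediate early genes in A549, *IER5* rose (0.72, adjusted p = 0.0196) and *IER2* fell (-0.36, adjusted p = 0.0418), in 3 of 3 arrays each, with a list median of -0.27. Among 11 ligands and receptors, limma called only the receptor gene *FGFR1*, which fell (-0.68, adjusted p = 0.0394, 3 of 3 arrays), with a list median of -0.18. Genes not called are not named, and some of that list fell further than *FGFR1* on 3 of 3 arrays. None of 12 ETS and AP-1 factors (median -0.04) and none of 20 core cascade genes (median -0.06) was called by limma. Across all genes, limma gave 4658 at an unadjusted p under 0.05 in this group. Leaving out any 1 A549 array ended the calls of *SPRED2*, *EMP1*, *EPHA2*, *IER5*, *IER2* and *FGFR1*, whose means kept their sign (adjusted p = 0.0918 to 0.231), as did the brightest probe for *FGFR1* (-0.57, adjusted p = 0.0532), and leaving out GE2 or GE3 ended that of *PHLDA1* (adjusted p = 0.0963 and 0.0895).

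**Figure D2:**
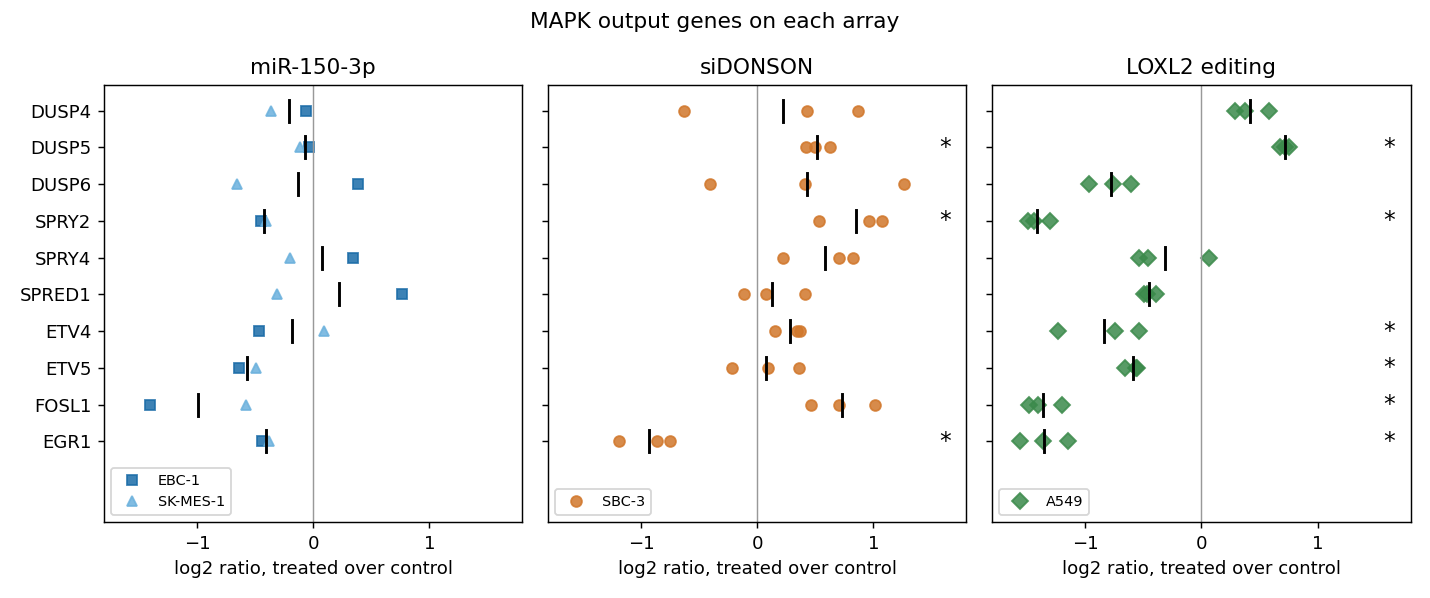
Log2 ratio of treated over control (horizontal axis) of each member on each array, in 1 panel per group, with 1 point per array. Black bars are group means, the grey line marks 0 and asterisks mark members called by limma at an adjusted p under 0.05. In A549 *SPRY2*, *FOSL1* and *EGR1* lay between -1.56 and -1.14 on every array, and in SBC-3 *EGR1* lay below 0 while *DUSP5* and *SPRY2* lay above it.

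In SBC-3 cells with siRNAs against *DONSON*, 2 of 10 members rose (*DUSP5* and *SPRY2*) and 1 fell (*EGR1*) by limma. Of 14453 genes tested, 3.00% were called higher and 2.54% lower. The median of the members was 0.35 with 1 of 10 below 0, beside 0.03 and 45.5% below 0 over all genes tested. *EGR1* was the only member below 0 in the group mean, and its control level was higher in this line than in the others.

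*DUSP5* had log2 ratios of 0.42, 0.49 and 0.63 with siDONSON-1, siDONSON-2 and siDONSON-3 and rose 1.43-fold (mean 0.51, SE 0.085, adjusted p = 0.0253, 3 of 3 arrays). *DUSP4* had ratios of -0.63, 0.42 and 0.86, with siDONSON-1 on the other side of 0. *DUSP6* had ratios of 1.26, -0.40 and 0.41, with siDONSON-2 on the other side. Neither passed the test (means 0.22 and 0.42, adjusted p = 0.628 and 0.433).

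*SPRY2* had ratios of 1.07, 0.53 and 0.96, lowest with siDONSON-2, and rose 1.81-fold (mean 0.85, SE 0.12, adjusted p = 0.0177, 3 of 3 arrays). *SPRY4* had ratios of 0.71, 0.22 and 0.82 and did not pass (mean 0.58, adjusted p = 0.0991). Its brighter probe, with ratios of 0.99, 0.55 and 0.62, was called higher when used alone (0.72, adjusted p = 0.0244, range over 14 alternatives 0.0244 to 0.306), and its dim probe was not well above background in green on any SBC-3 array. Under normexp *SPRY4* was called with a mean of only 0.18 (adjusted p = 0.0269). *SPRED1* had ratios of 0.41, 0.08 and -0.12, inside the 95% limits of the scanner software's error on each array, and did not pass (mean 0.12, adjusted p = 0.737).

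*EGR1* had ratios of -1.19, -0.87 and -0.75 and fell to 52.3% of control (mean -0.94, SE 0.12, adjusted p = 0.0157, 3 of 3 arrays). *FOSL1* had ratios of 0.47, 0.70 and 1.02, above 0 on each array, and just missed the threshold (mean 0.73, SE 0.17, adjusted p = 0.0551). *ETV4* had ratios of 0.34, 0.15 and 0.36 (adjusted p = 0.312), and *ETV5* of 0.36, -0.21 and 0.09 (adjusted p = 0.721). All 6 values of this ETV pair lay inside the software's 95% limits.

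Calls in SBC-3 depended on single arrays. Without siDONSON-3 none of the 3 was called (*DUSP5* adjusted p = 0.0956, *SPRY2* 0.0803 and *EGR1* 0.0581), and without siDONSON-1 only *EGR1* was (*DUSP5* 0.0529 and *SPRY2* 0.0537). Normexp reduced the *SPRY2* mean to 0.49, which was called, and the *DUSP5* mean to 0.10, which was not (adjusted p = 0.110), and with the spread taken from the SBC-3 arrays alone none was called (adjusted p = 0.105 to 0.159). Treated channels also varied more in this line, with an SD between pairs of arrays of 0.40 to 0.54 over probes, against 0.19 to 0.25 in A549. The part of that variation in these results was not tested.

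Few listed genes passed in SBC-3. Of 11 feedback regulators, *DUSP9*, a cytoplasmic ERK phosphatase gene, fell (-0.66, range -0.76 to -0.57, adjusted p = 0.0249, 3 of 3 arrays). Its normexp mean was -0.34. *SPRY3* also passed the threshold on the higher side (adjusted p = 0.0498). The control signal of *SPRY3* was not well above background on any array, so it entered the test only through its treated channel. Its ratios rest on a signal that was not measured well, and no change is read from this call. The gene was not tested when both channels had to be above background. Where a channel was dim, folds use a floor for it. This is, on each array, the lowest signal among probes above background, or the gene's own signal if that is higher. For *SPRY3* this gave 1.08-fold, and such folds are open to dye bias. *PLAUR*, the urokinase receptor gene, was called higher among 8 other output genes (ratios of 1.18, 0.55 and 1.20, mean 0.98, adjusted p = 0.0252). Its control signal was above background on only 2 of 3 arrays, and it too was not tested when both channels had to be. *DUSP9* and *PLAUR* were not called without siDONSON-1 or siDONSON-3 (adjusted p = 0.0576 to 0.103) or with the spread of the SBC-3 arrays alone (0.122 and 0.120). Nor was *PLAUR* under normexp (0.16, adjusted p = 0.148). *SPRY3* was called in 4 of 13 alternatives. Its normexp mean of 0.053 (adjusted p = 0.368) lies below the log2 of its floor fold (0.11), so that fold is not a lower bound. Limma called none of 11 ETS and AP-1 factors, 10 immediate early genes, 20 core cascade genes and 11 ligands and receptors, and gave 3586 genes at an unadjusted p under 0.05. List medians were 0.30 for feedback regulators, 0.35 for ETS and AP-1 factors, 0.29 for immediate early genes, 0.19 for other output genes, 0.06 for the core cascade and -0.00064 for ligands and receptors.

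After *miR-150-3p* transfection, 0 of 10 members were called by limma over the EBC-1 and SK-MES-1 arrays. Of 14229 genes tested, 1.43% were called lower and 1.16% higher, and 4018 had an unadjusted p under 0.05. The median of the members was -0.20 with 8 of 10 below 0, beside 0.04 and 46.1% below 0 over all genes tested. *FOSL1* came nearest to a call, and the 2 lines had opposite signs for 4 members, 1 of them through a dim probe.

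*FOSL1* had log2 ratios of -1.40 (EBC-1) and -0.58 (SK-MES-1) (mean -0.99, SE 0.21, adjusted p = 0.0546), beyond the software's 95% limits on both arrays. *ETV5* had ratios of -0.64 and -0.50, also beyond those limits on both (mean -0.57, adjusted p = 0.0741). *SPRY2* had ratios of -0.45 and -0.40 (adjusted p = 0.116), and *EGR1* of -0.44 and -0.38 (adjusted p = 0.129). For both, EBC-1 was beyond the limits and SK-MES-1 was not. *DUSP4* had ratios of -0.06 and -0.36, and *DUSP5* of -0.03 and -0.12, inside the limits on both arrays.

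The other 4 members had opposite signs in the 2 lines. Ratios of *DUSP6* were 0.39 (EBC-1) against -0.65 (SK-MES-1), those of *SPRED1* 0.76 against -0.31, and those of *SPRY4* 0.35 against -0.20. For *SPRY4* only the dim probe had opposite signs (0.59 and -0.41), while its brighter probe was at 0.10 and 0.02, inside the limits on both arrays. *ETV4* ran the other way, at -0.47 (EBC-1) against 0.09 (SK-MES-1). With 1 array per line these differences have no test.

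**Figure D3:**
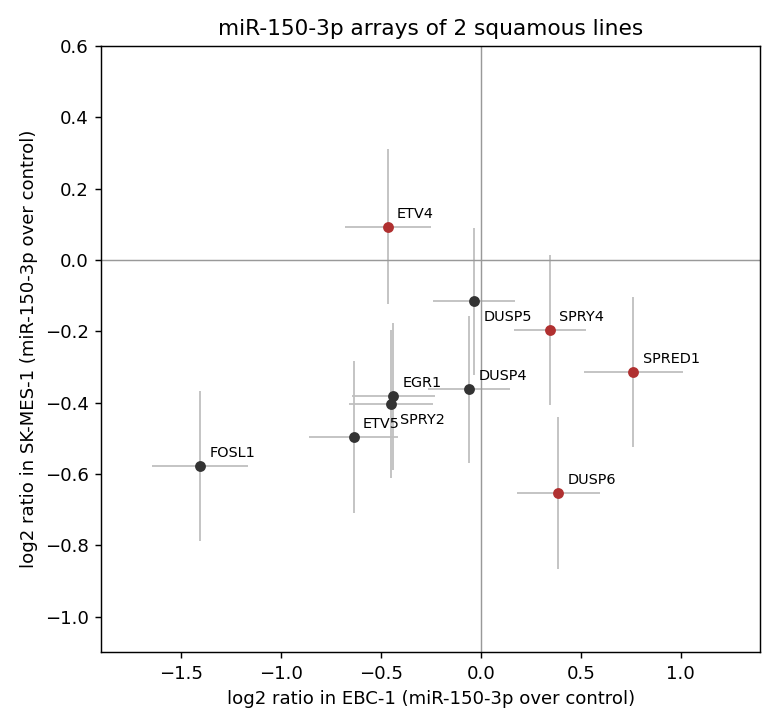
Log2 ratio of each member after *miR-150-3p* transfection in EBC-1 (horizontal axis) and SK-MES-1 (vertical axis), with 1 array per line. Grey bars are the scanner software's error of 1 SD, and red points mark the 4 members with opposite signs (*DUSP6*, *SPRY4*, *SPRED1* and *ETV4*). The sign of *SPRY4* differs in its dim probe only. *FOSL1* lies lowest in EBC-1 at -1.40.

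Read singly, the EBC-1 array had 1 of 10 members below a log2 ratio of -1 (*FOSL1*) and 0 above 1, against 6.04% and 5.96% of 14759 genes. The SK-MES-1 array had 0 of 10 past either size, against 1.27% and 2.57% of 16176 genes. The EBC-1 median of the members was -0.25 with 7 of 10 below 0, beside 0.05 and 45.9% below 0 over all genes. For SK-MES-1 the median was -0.37 with 9 of 10 below 0, beside 0.02 and 47.5%.

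Of 20 core cascade genes in the squamous lines, *MAP2K1*, which codes for the kinase MEK1, fell, with ratios of -1.50 on the EBC-1 array and -1.25 on the SK-MES-1 array (mean -1.38, adjusted p = 0.0155, 2 of 2 arrays). It was not called without EBC-1 (adjusted p = 0.132) or with the spread of this group alone (adjusted p = 0.307), in a range of 0.00551 to 0.307 over 12 alternatives. Of 12 feedback regulators, *DUSP9* fell (-0.94 and -0.57, mean -0.75, adjusted p = 0.0414, 2 of 2 arrays), and this call was lost without EBC-1 (adjusted p = 0.248), with no filter on dim probes (0.0541) and with the spread of this group alone (0.356). With normexp its mean was -0.17 (adjusted p = 0.0481). Limma called none of 12 ETS and AP-1 factors, 8 immediate early genes, 7 other output genes and 11 ligands and receptors. List medians were 0.03 for the core cascade, -0.13 for feedback regulators, -0.08 for ETS and AP-1 factors, 0.31 for immediate early genes, -0.20 for other output genes and -0.35 for ligands and receptors.

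Past a log2 ratio of 1 or -1 on the EBC-1 array were, beside *MAP2K1*, the feedback regulator *DUSP8* (1.01), *FOS* (-1.14), *JUNB* (1.11), *CCND1* (-1.15) and the ligand gene *HBEGF* (-1.04). On that array *EGR4* was 2.53-fold above its own control signal, which was not well above background, so this fold is not exact. *FGFR3* was 2.15-fold lower with the floor used for its treated signal, which was not well above background, so this fold is not exact either. On the SK-MES-1 array *FOSB* had a ratio of 1.42, but its control signal was not well above background and no fold is given. These values come from 1 array each and have no replicate check within a line. On the SK-MES-1 array *DUSP8* was at 0.12, *FOS* at -0.27, *JUNB* at 0.07, *CCND1* at -0.50, *HBEGF* at -0.17 and *FGFR3* at -0.23. *FOSB* was at -0.66 on the EBC-1 array, on the other side of 0.

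Calls near the threshold changed with the filter, with the combined normexp and loess setting and with the estimate of the spread. With *miR-150-3p*, *FOSL1* was called with normexp (adjusted p = 0.0215), with both channels above background (0.0377) and without SK-MES-1 (0.0118). With siDONSON it was called with no filter on dim probes (0.0358), with both channels above background (0.0387) and with 4 cell lines as 4 groups (0.0311). Apart from these settings, 4 versions of the shared estimate of the spread were run. The version over all genes set out in the design is reported, and the other 3 were chosen after seeing the data. With the spread estimated over genes measured on each array of the group, a version that was in use for the reported values for a time, *FOSL1* was called in the *miR-150-3p* (adjusted p = 0.0419) and siDONSON groups (0.0440). Over genes measured on all 8 arrays the values were 0.0342 and 0.0371, and *ETV5* was called as well in the *miR-150-3p* group (0.0499). With a robust estimate of the spread *FOSL1* was called in neither group (0.0562 and 0.0572). Over all alternatives the adjusted p of *FOSL1* ran from 0.0118 to 0.356 with *miR-150-3p* and from 0.0311 to 0.199 with siDONSON.

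Set side by side, *EGR1* was below 0 on 8 of 8 arrays. *SPRY2* and *FOSL1* were below 0 on the 5 arrays of squamous and A549 cells and above 0 on the 3 SBC-3 arrays. *DUSP5* was above 0 on the 6 arrays of SBC-3 and A549, of which siDONSON-1 lay inside the software's limits. In the squamous lines *DUSP5* was below 0, inside those limits. Differences between groups were not tested.

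The pattern of *DUSP6* over the 8 arrays was compared with 12862 genes measured on each, by the root mean square difference of log2 ratios, which had a median of 0.81. A gene at 0 on every array would have a difference of 0.74, and 3685 genes lay nearer than that. The nearest genes were *EFCAB3* (0.32), *EEIG1* (0.37), *TNFRSF21* (0.38), *TNFRSF12A* (0.38) and *AP1S2* (0.39). Among the members, *SPRY4* (0.48), *SPRED1* (0.49), *ETV5* (0.52), *ETV4* (0.57) and *SPRY2* (0.64) lay nearer than a gene at 0 would. *FOSL1* (0.91), *DUSP5* (1.05), *DUSP4* (1.07) and *EGR1* (1.09) lay farther. The arrays share a slide and, within a line, possibly a control RNA, so these distances are a description.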

How the data were processed

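Total RNA of 8 treated and control pairs was hybridised to Agilent arrays of 62976 spots. Per the file headers, the deposited intensities were made with Feature Extraction 12.1.1.1, which subtracted background, removed spatial trends and normalised the dyes within each array by a linear and lowess fit. The deposited log10 ratio of red over green came with the software's error. The authors' value table held the same log10 ratios, with a median of 0 on each array.

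From these, log2 ratios of the processed signals were computed. Control spots and outlier spots (81 to 133 per array) were left out, spots of a probe were averaged, a probe was counted on an array where either channel was flagged as well above background, and a gene was the mean of its counted probes. Names came from RefSeq GRCh38.p14 (24782 of 50096 accessions matched, 31104 of 58201 probes named), since the design of the arrays used the build hg19, of which only names were taken. Group means were tested against 0 in 1 limma fit (limma 3.58.1 in R 4.3.3, lmFit and eBayes, 2-sided, 5 residual degrees of freedom), with Benjamini-Hochberg adjustment over genes with a value on each array of the group and a threshold of 0.05. All arrays entered the fit, as 2 arrays alone leave too little to estimate a spread. Adjusted p-values in the text are limma's. For single arrays, a log2 size of 1 was counted, and the software's error was turned into 95% limits. Control levels were scaled between arrays with Aquantile. The scripts were tested on simulated data.

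Members were all named, as were *DONSON* and *LOXL2*. From lists of feedback regulators, ETS and AP-1 factors, immediate early genes, other output genes, core cascade genes, and ligands and receptors, at most the 3 largest called genes per group or array were named, and for likeness the 5 genes nearest to *DUSP6*. The members and lists were chosen with earlier results of these data known. Alternatives were normexp (offset 50) with loess, median centring, other filters on dim probes, the brightest probe, other estimates of the spread, 4 cell lines as 4 groups, the value table, other scalings of control levels (among them the 75th percentile), and leaving out each array. Normexp was run on median signals, because mean signals are not in the files used here. Some listed genes and markers are counted but not reported by name here.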

Additional observations from a re-analysis of the deposited data

Results flagged for a closer look

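*DUSP6*, *SPRED1*, *ETV4* and, as the mean of 2 probes, *SPRY4* had log2 ratios of opposite sign in the 2 squamous lines after *miR-150-3p* transfection. The log2 ratio in EBC-1 minus that in SK-MES-1 was 1.04 for *DUSP6*, 0.54 for *SPRY4*, 1.08 for *SPRED1* and -0.56 for *ETV4*. With 1 array per line the difference between lines was not tested. The software's 95% limits were passed by *SPRED1* and *ETV4* in EBC-1 and by *DUSP6* in SK-MES-1, and by neither array for the mean of *SPRY4*. The sign of *SPRY4* differed only in its dim probe (0.59, beyond its limit of 0.56, and -0.41, inside its limit), and its brighter probe was at 0.10 and 0.02 in EBC-1 and SK-MES-1.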

How the results depend on the processing

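No paired analysis was possible because each array holds its own control and the groups are not set against each other. Genes called by limma with *miR-150-3p* (369) became 1654 with normexp and loess, 198 with no filter on dim probes, 795 with both channels above background, 0 with the spread of the group's own arrays (1944 at an unadjusted p under 0.05), and, in versions of the fit chosen after seeing the data, 765 with the spread over genes complete in the group and 894 over genes complete on all arrays. Leaving out an array gave 1 (without EBC-1) to 2493 (without SK-MES-1), the lone array being assumed to vary like the other groups. Members called there (0) became 1 with normexp, 1 with both channels above background, 1 and 2 with those versions of the spread, and 0 to 2 when an array was left out. For siDONSON (800 genes), the count was 1612 with normexp, 2897 with no filter, 26 with the group's own spread, and 41 (without siDONSON-3) to 787 with an array left out (193 without siDONSON-1); members called (3) became 5 with both channels above background, 0 with the group's own spread, and 0 to 3 with an array left out. The split of lower and higher siDONSON calls, 367 and 433, was 423 and 325 after median centring, 565 and 1047 with normexp, 2133 and 764 with no filter, and 24 and 2 with the group's own spread. That of LOXL2 editing, 974 and 1074, was 3914 and 1461 with no filter, and that of *miR-150-3p*, 204 and 165, was 134 and 64. For LOXL2 editing (2048 genes), the count was 3217 with normexp, 5375 with no filter, 5873 with the group's own spread, and 363 to 466 with an array left out, and members called (6) became 9 with the group's own spread, 7 each with both channels above background, the brightest probe and 4 cell lines as 4 groups, and 4 to 5 with an array left out. Of control levels, the 7 members past a log2 difference of 1 between EBC-1 and SK-MES-1 became 2 with normexp (all genes, 30.7% and 11.2%), while the counts against A549 of 3 (SBC-3), 5 (EBC-1) and 5 (SK-MES-1) became 3, 4 and 4 (all genes, 33.2%, 34.4% and 29.2% against 14.7%, 14.2% and 10.8%). Means that changed sign, none of them called in the reported fit, were *DUSP6* with *miR-150-3p* under normexp (0.022), and, when an array was left out, with *miR-150-3p* *DUSP6* (-0.65 to 0.39), *SPRY4* (-0.20 to 0.35), *SPRED1* (-0.31 to 0.76) and *ETV4* (-0.47 to 0.093), and with siDONSON *SPRED1* (-0.020 to 0.24), *ETV5* (-0.063 to 0.23) and *DUSP4* (-0.10 to 0.64). Why these values moved was not tested, except that leaving out arrays leaves fewer samples. Over all alternatives, member means kept their direction and side of the threshold in 108 of the *miR-150-3p* values, 120 of the siDONSON values and 129 of the LOXL2 editing values, lost a call in 0, 9 and 5, and gained a call in 7, 8 and 6; *DUSP5*, *SPRY2*, *FOSL1* and *EGR1* in LOXL2 editing were called in 14 of 14 alternatives. The value table of the authors gave the same counts. A replicate block could not be fitted, and 4 cell lines as 4 groups left the *miR-150-3p* arrays as single samples, so that setting was run for the other groups only.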
